A study of Arabidopsis thaliana with 12 samples.

Results

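Seedlings of Arabidopsis thaliana given UV-B were compared with seedlings in white light alone, across all genes and functions and with little space for the well-known targets of the UV-B receptor UVR8. The comparison used 6 of the 12 libraries of the series. All 6 came from Col-0, the common wild-type accession, as whole 10-day-old seedlings raised with 16 h light and 8 h darkness a day, without any added abscisic acid (ABA). The first group, with 3 libraries, stayed in white light, and the second, also with 3, received 5 µmol m-2 s-1 of UV-B on top of white light for 3 h. The replicates are biological and were kept apart from germination to library, per the labels. The sources used here do not give the lamp, its spectrum or the time of day at harvest. Some of the other libraries are uvr8 mutant seedlings given UV-B in the same way. The rest are Col-0 seedlings in white light with 50 µM ABA for 3 h. Together they enter only the estimate of the spread, the factors of a scaling described below and a few values given side by side. Of the 32833 loci in the tables, 19146 reached 1 TPM (transcript abundance per transcript length and per library total) in at least 3 of the 6 libraries and were tested.

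UV-B is absorbed by DNA, proteins and lipids, and at low doses plants also perceive it as a signal through the photoreceptor UVR8, which acts with the ubiquitin ligase COP1 to raise the transcription factor HY5. The response is known for flavonoid sunscreens, photolyases and compact growth. In green tissue photosystem II, the membrane lipids and the pigments of the chloroplast are known to be sensitive to it.

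The libraries were alike in quality. Their totals lay between 998400.6 and 998581.1 TPM, 18795 to 19068 genes reached 1 TPM in each, and the depth is unknown because TPM keeps none. Spearman correlations across genes were 0.976 to 0.979 within groups and 0.963 to 0.967 between them, and none of the 15 library pairs was identical. The green tissue of the labels was plain in the data, since antenna and photosystem genes such as LHCB1.3 stood at from 13468 ± 1242 to 11194 ± 1282 TPM in white light and under UV-B. The 4 seed storage markers summed to at most 1.35 TPM in any library, and of 7 root markers COBL9, PRP3, EXPA7 and CASP1 averaged below 1 TPM in both groups. The other root markers were present, with BGLU23 from 280.2 ± 15.1 to 220.1 ± 27.4 TPM and SHR from 11.4 ± 1.3 to 8.27 ± 1.57 TPM, both lower but not after scaling, and SCR from 16.3 ± 0.93 to 16.5 ± 2.71 TPM with no call. All 5 guard cell markers were present and none was called, or 1 higher after scaling. In whole seedlings, fewer cells of a type and less RNA per cell cannot be told apart.

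UV-B changed the level of many genes within 3 h. With limma's moderated test on log2(TPM + 1) and an adjusted p of 0.05, 2465 genes were higher (12.9% of those tested) and 5571 lower (29.1%). The stricter call, which also asks for a change of at least 2-fold, held for 785 genes upward (4.1%) and 517 downward (2.7%). TPM is relative to the library total, and the 785 higher genes took up 25966.8 to 27690.1 TPM in white light but 97941.8 to 103649.2 TPM under UV-B. Over all genes tested the median log2 change was -0.16, or -0.01 after a TMM-style scaling that allows for such a shift. After scaling 3763 genes were higher (19.7%) and 3474 lower (18.1%), and at least 2-fold 984 (5.14%) and 328 (1.71%). The same 2465 genes were higher under both scales and 3474 lower under both, and none was called in opposite directions. Counts of members are therefore read against these shares and small changes against a median of -0.16, and functional lists are given with both scales where the balance differs. Means of 3 libraries are given ± SD, and the value after ± beside a log2 change is its SE.

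The known UVR8 response was present. Of 18 UVR8 target genes 17 rose, all at least 2-fold, with a median log2 change of 3.67, and the 20 flavonoid genes all rose, with a median of 3.79. Among the regulators SIG5, a sigma factor that directs plastid transcription, stood at 1.96, 1.83 and 1.75 TPM in white light and 199.8, 192 and 186 TPM under UV-B. Its groups did not overlap.

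**Figure D1:**
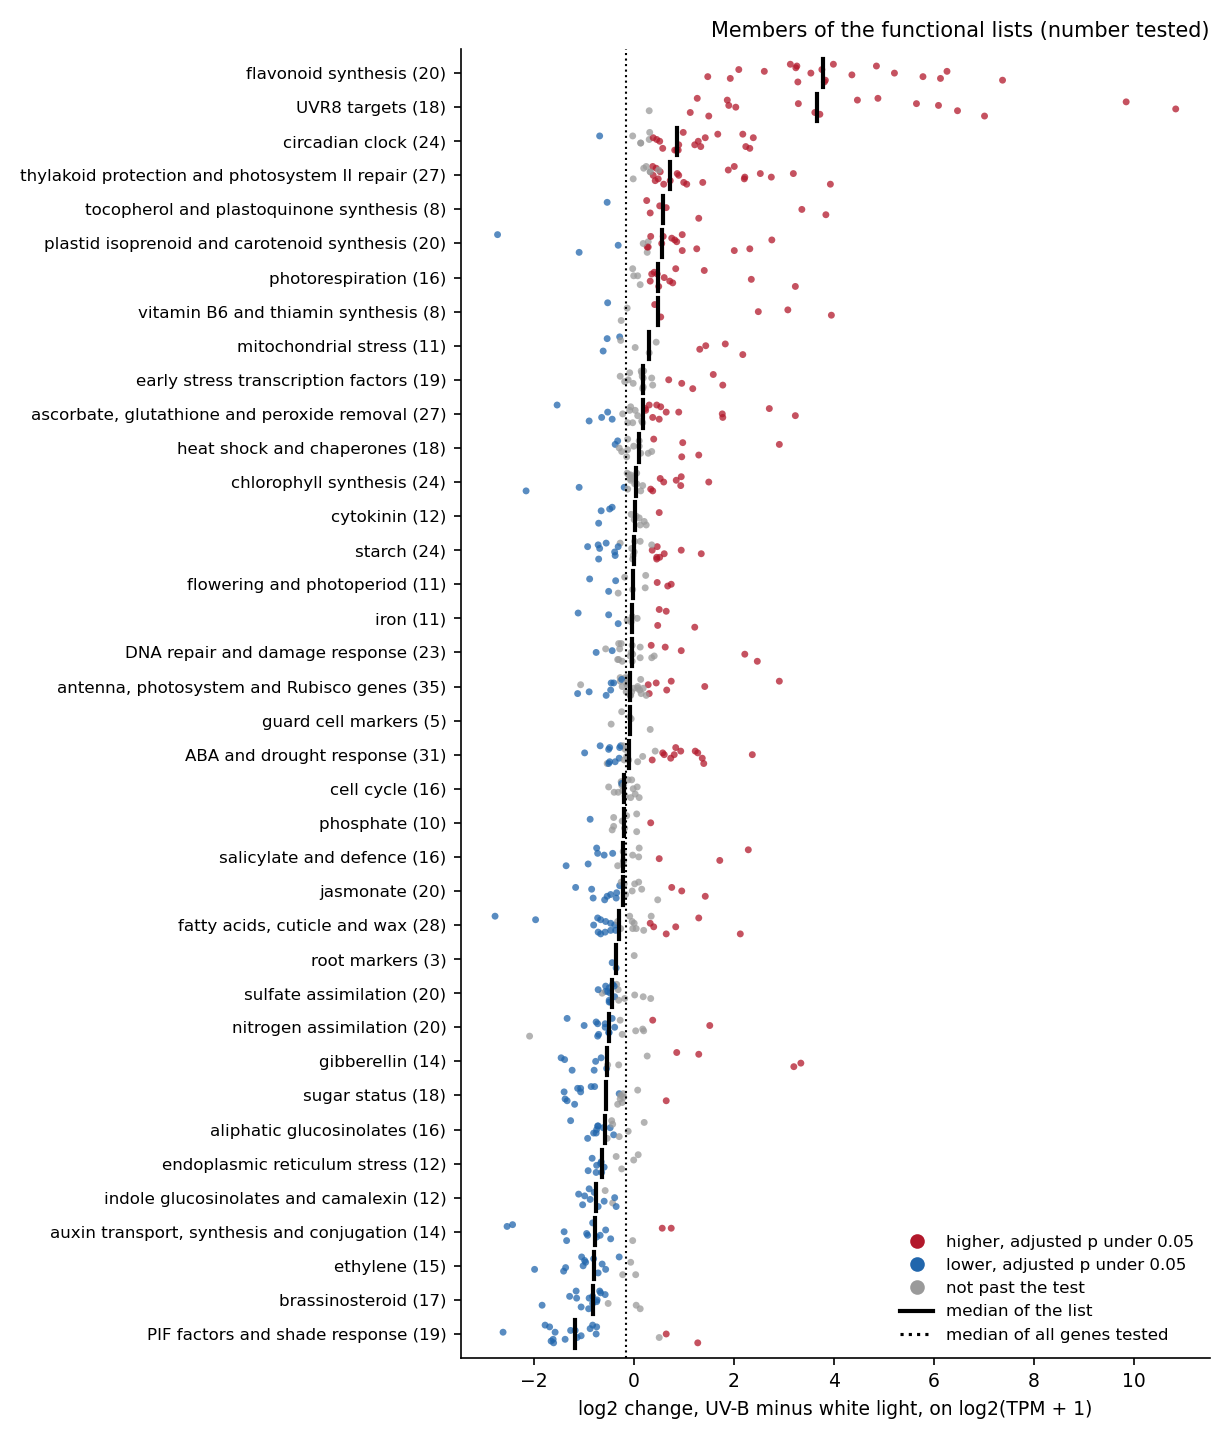
Log2 change (UV-B minus white light, on log2(TPM + 1), horizontal axis) of every tested member of the functional lists, with the number tested in brackets, red for higher and blue for lower at an adjusted p under 0.05, grey otherwise. Thick bars are list medians and the dotted line is the median of all genes at -0.16. Flavonoid and UVR8 target genes lie far to the right, clock, thylakoid and vitamin lists above the dotted line, and shade, brassinosteroid, ethylene and auxin lists below it.

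Short motifs were counted in the promoters of the genes that rose and fell. CACGTG, the G-box core that HY5 and PIF factors are known to bind, was searched on both strands in the 250 bases before each annotated gene start of TAIR10.1. It was found in 107 of 785 promoters of genes at least 2-fold higher (13.6%), in 38 of 516 of those at least 2-fold lower (7.36%) and in 1390 of 19047 of all tested genes (7.3%). The evening element AAAATATCT of clock-controlled genes was in 3.95%, 2.52% and 2.54% of these sets. The W-box cores TTGACC or TTGACT, bound by WRKY factors, were in 27.5%, 24.0% and 27.8%, and the auxin response element TGTCTC in 86 of 785, 50 of 516 and 2009 of 19047. None of these motifs contains another. These shares are a description, with no test. Among 29 genes of the 7 protection lists that rose at least 2-fold, 6 hold CACGTG in that window, and the windows of 4 of them are shown. Capitals mark CACGTG, the sequence reads 5′ to 3′ on the strand of the gene, and the last base is the one before the annotated start.
DDB2: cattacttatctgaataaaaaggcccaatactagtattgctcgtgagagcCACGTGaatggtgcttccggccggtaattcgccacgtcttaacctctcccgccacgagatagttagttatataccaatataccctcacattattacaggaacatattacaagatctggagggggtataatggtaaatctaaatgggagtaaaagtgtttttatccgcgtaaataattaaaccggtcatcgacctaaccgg
GLDP1: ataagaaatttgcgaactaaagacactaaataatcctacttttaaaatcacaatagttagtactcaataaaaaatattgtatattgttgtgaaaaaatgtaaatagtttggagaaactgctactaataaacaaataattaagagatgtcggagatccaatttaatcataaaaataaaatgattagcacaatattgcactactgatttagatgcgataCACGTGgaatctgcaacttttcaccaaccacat
BCH2: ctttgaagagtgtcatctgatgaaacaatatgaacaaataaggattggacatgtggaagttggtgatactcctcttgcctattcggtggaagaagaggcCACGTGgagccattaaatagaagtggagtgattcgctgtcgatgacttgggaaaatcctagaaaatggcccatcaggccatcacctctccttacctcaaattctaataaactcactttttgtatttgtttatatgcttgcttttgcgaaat
OHP1: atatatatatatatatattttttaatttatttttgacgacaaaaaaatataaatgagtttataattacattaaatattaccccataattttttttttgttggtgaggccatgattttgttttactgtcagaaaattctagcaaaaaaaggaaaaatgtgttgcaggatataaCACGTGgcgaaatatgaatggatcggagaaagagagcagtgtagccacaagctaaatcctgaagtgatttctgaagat
The motif starts at -200 in DDB2 (chr5:23733708-23733957, minus strand) and at -33 in GLDP1 (chr4:15931423-15931672, minus strand). BCH2 (chr5:21337127-21337376, minus strand) has it at -151 and OHP1 (chr5:418841-419090, plus strand) at -78.

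MIR163 was among the 12 genes with the highest changes outside the UVR8 and flavonoid lists. The microRNA cut from its transcript is known to target a family of methyltransferase genes. MIR163 (AT1G66725, chromosome 1, 24884066 to 24884396) held 0.3 TPM in the second white-light library and was listed at 0 in the others, and stood at 58.9, 60.1 and 46.9 TPM under UV-B. The groups did not overlap. The value is of the gene's transcript, since the libraries were not made for small RNAs, and no level of the mature microRNA was measured. The mature sequence is shown with its seed (bases 2 to 8) in capitals, followed by the best complementary site in 2 of the target genes, where capitals mark bases complementary to miR163.
miR163: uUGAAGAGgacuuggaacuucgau
PXMT1 site: catcgAGTTCCAAGTCCTCTTCAA
FAMT site: AatcgAGTTCCAAGTttTCTTCAA
The mature sequence lies at chr1:24884359-24884382 (plus strand of TAIR10.1), and the sites at chr1:24874307-24874330 (minus strand) and chr3:16380055-16380078 (plus strand). Counted without gaps and without G:U pairs, the site in PXMT1 pairs at 19 of 24 bases and that in FAMT at 18. Bases in lower case may therefore still pair across a bulge or as G:U. Of the 5 target genes only FAMT, which methylates farnesoic acid, was abundant enough to be tested, and it was higher under UV-B, from 8.76 ± 2.02 to 14.8 ± 6.41 TPM on average, with a log2 change of 0.64 ± 0.24 (adjusted p = 0.0487). PXMT1 averaged from 0.32 ± 0.12 to 0.21 ± 0.06 TPM.

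Genes that protect and repair the photosynthetic membrane rose together under UV-B. Of 28 genes of thylakoid protection and photosystem II repair 27 were tested, 21 rose and none fell, 11 of them at least 2-fold. The list's median log2 change was 0.73, and after scaling 26 rose. The largest changes were in the FtsH protease, which degrades damaged D1 protein of photosystem II. FTSH8 (AT1G06430, chromosome 1, 1960031 to 1963189) stood at 32.8, 32.2 and 32.5 TPM in white light and 517, 534 and 480.2 TPM under UV-B. All 3 UV-B libraries lay far above white light, the mean 15.7-fold higher, and the log2 change was 3.93 ± 0.08 (adjusted p = 5.3e-12). VAR1, the FtsH5 subunit, stood at 151, 154 and 142 TPM in white light and 894, 857 and 839.5 TPM under UV-B and rose by 2.53 ± 0.09. FTSH1 rose from 35.9 ± 3.04 to 337 ± 19.8 TPM and VAR2, the FtsH2 subunit and the most abundant of the 4 in white light, only from 283 ± 9.79 to 591 ± 6.08 TPM. All 4 FtsH genes of the thylakoid complex were thus higher in each UV-B library than in any white-light library. The partly redundant pairs of the complex are known as FtsH1 with FtsH5 and FtsH2 with FtsH8, and in each pair the member that was lower in white light had the larger fold.

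The small helix proteins of the thylakoid, relatives of the early light-induced proteins, also rose. OHP1 and OHP2, which bind chlorophyll during photosystem II assembly, rose from 64.99 ± 1.58 to 309 ± 43.6 TPM and from 77.5 ± 5.18 to 361 ± 25.7 TPM, and the stress-enhanced protein genes SEP1 and SEP2 from 154 ± 4.18 to 406 ± 74.5 TPM and from 27.6 ± 3.6 to 191 ± 11.8 TPM. NPQ4, the PsbS protein that triggers thermal dissipation of excess light, stood at 423, 401 and 365 TPM in white light and 1461, 1770.02 and 1584 TPM under UV-B. No UV-B library was below 1461 TPM, and the log2 change was 2.01 ± 0.09 (adjusted p = 4.77e-09). PGR5, needed for cyclic electron flow, rose from 53.6 ± 1.57 to 202 ± 18.1 TPM. Of the other plastid sigma factors SIG1, SIG3, SIG4 and SIG6 rose, with log2 changes from 0.53 to 0.87 beside the 6.09 of SIG5, and SIG2 was not called at 0.33 ± 0.12. The antenna kinase gene STN7 rose by 0.90 ± 0.11, and STN8, for the kinase of the core proteins, was not called at 0.50 ± 0.19. The DEG proteases moved little, with a log2 change of 0.38 ± 0.11 for DEG1 and -0.01 ± 0.14 for DEG2, which did not pass. Reads of antisense neighbours could contribute to FTSH1 (300 bp of shared exon), VAR2 (246 bp) and OHP2 (223 bp), since the sources used here do not give the strand setting of the counting.

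**Figure D2:**
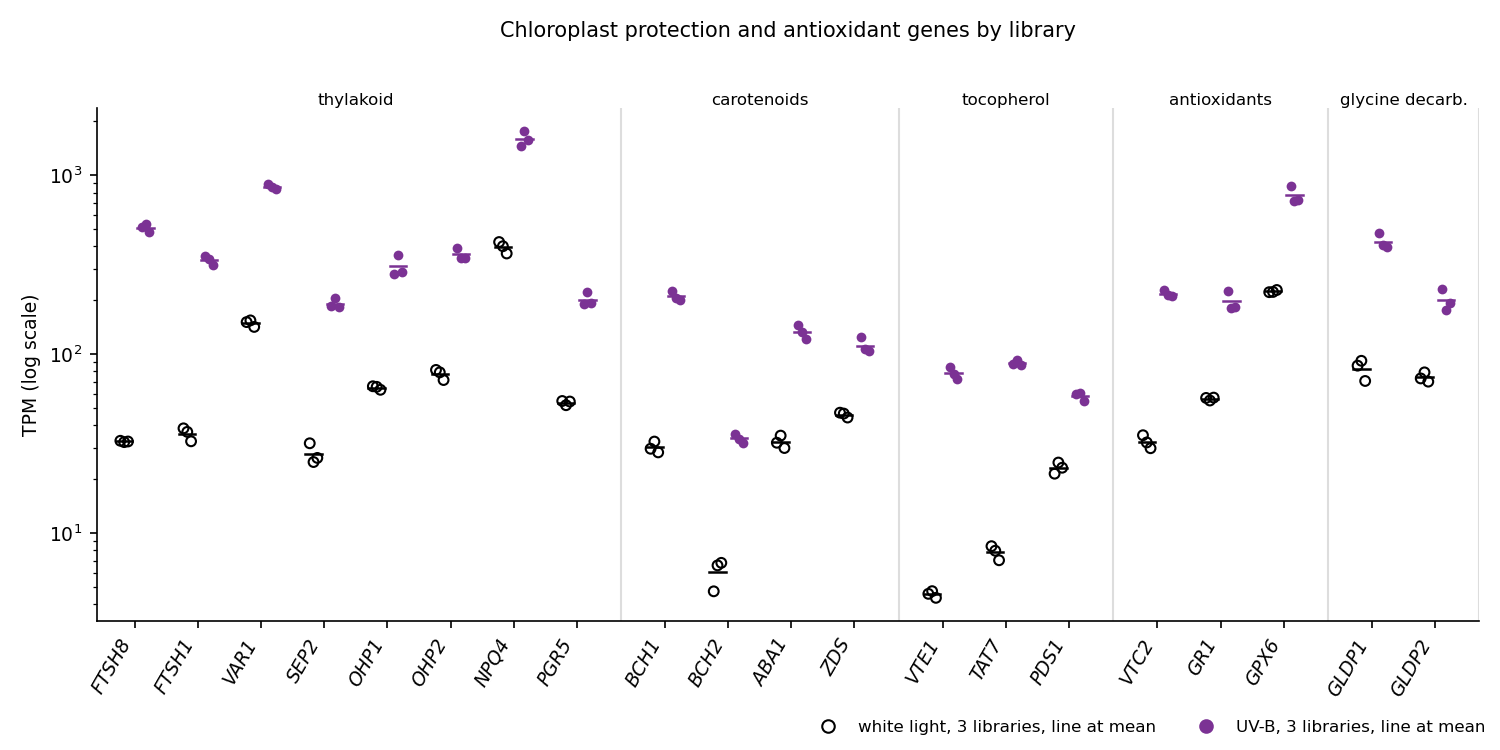
TPM on a log axis of 20 genes of chloroplast protection, carotenoid and tocopherol synthesis, antioxidants and glycine decarboxylase, with open circles for the 3 white-light libraries, filled circles for the 3 UV-B libraries and lines at the means. The 3 UV-B libraries lie above the 3 white-light libraries for each gene shown, with FTSH8 rising from a mean of 32.5 to 510.4 TPM. The genes were drawn because they were called at least 2-fold higher.

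Most synthesis genes for the carotenoids and tocopherols of the same membrane also rose, while the compounds themselves were not measured. Of 20 genes of plastid isoprenoid and carotenoid synthesis 14 rose and 3 fell, with a median of 0.57, and after scaling 17 rose and 1 fell. The xanthophyll branch changed most. BCH1 (beta-carotene hydroxylase, which makes zeaxanthin) stood at 29.6, 32.5 and 28.2 TPM in white light and 224, 206 and 199.8 TPM under UV-B, a log2 change of 2.76 ± 0.09 (adjusted p = 2.74e-10). Its partner BCH2 rose from 6.04 ± 1.15 to 33.8 ± 1.92 TPM. The groups did not overlap for either hydroxylase. ABA1, zeaxanthin epoxidase, rose by 2.01 ± 0.12, and NPQ1, violaxanthin de-epoxidase, by 0.82 ± 0.10. PSY, phytoene synthase at the entry of the pathway, rose by 0.86 ± 0.09 and ZDS, a desaturase in the middle of it, by 1.26 ± 0.12. CCD4, a carotenoid-cleaving dioxygenase, fell from 5.91 ± 0.79 to 2.23 ± 0.34 TPM. GGPS1, the main plastid geranylgeranyl diphosphate synthase, stood at 42.5, 50.2 and 53.1 TPM in white light, and under UV-B it held 20.1 and 18.9 TPM and was listed at 0 in the first library. Its call was lost after scaling, and 1492 bp of its exons overlap an antisense gene, so its change is uncertain.

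Of 8 genes of tocopherol and plastoquinone synthesis 7 rose and 1 fell, with a median of 0.59. VTE1 (AT4G32770, chromosome 4, 15804784 to 15808084), the tocopherol cyclase, stood at 4.57, 4.73 and 4.34 TPM in white light and 85.1, 77.5 and 72.5 TPM under UV-B. The groups were far apart, the mean 17.2-fold higher under UV-B, and the log2 change was 3.84 ± 0.14 (adjusted p = 7.3e-10). TAT7, a tyrosine aminotransferase, and PDS1, the dioxygenase that makes homogentisate from its product, are steps of the supply of the ring of tocopherol and rose from 7.81 ± 0.71 to 89.2 ± 3.01 TPM and from 23.1 ± 1.66 to 58.4 ± 3.09 TPM. VTE5, the phytol kinase that recycles the side chain from chlorophyll, fell by a log2 change of -0.53 ± 0.12.

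Genes for the committing steps of vitamin B6 synthesis rose. Pyridoxal phosphate, a cofactor and a quencher of singlet oxygen, is made by the PDX1 and PDX2 proteins. PDX1.3 (AT5G01410, chromosome 5, 171889 to 173663) stood at 168, 167 and 175 TPM in white light and 1520.5, 1462 and 1367 TPM under UV-B and rose by 3.08 ± 0.06 (adjusted p = 5.3e-12). PDX1.1 stood at 63.7, 55.99 and 55.95 TPM in white light and 843, 1035 and 882 TPM under UV-B, and the glutaminase partner PDX2 rose from 69.3 ± 1.4 to 395 ± 20.6 TPM. In each of the 3 UV-B libraries these genes stood above every white-light library. PDX1.2, a noncatalytic relative known from heat stress, fell from 24.8 ± 0.82 to 17.1 ± 0.73 TPM. Of the thiamin genes THI1 rose by 0.42 ± 0.11, whereas THIC had a log2 change of -0.13 ± 0.09 and TH1 of -0.25 ± 0.10, neither past the test. PDX1.1 has a near-identical copy, PDX1L4, over 469 bp, so its reads may be shared.

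Among 27 tested genes of ascorbate, glutathione and peroxide removal 13 rose and 5 fell, 4 and 1 of them at least 2-fold, with a median of 0.18. The 3 catalases moved apart. CAT2 (AT4G35090), the peroxisomal catalase of photorespiration, stood at 57.99, 56.1 and 52.05 TPM in white light and 621, 496 and 473 TPM under UV-B. CAT3 was the most abundant in white light and stood at 1008, 914 and 816 TPM in white light and 320.3, 319 and 305 TPM under UV-B. The order of the 2 genes was thus reversed in all 3 UV-B libraries. CAT1, the least abundant in both groups, fell by a log2 change of -0.52 ± 0.09. VTC2, which carries out the controlling step of ascorbate synthesis, stood at 35.2, 32.1 and 29.8 TPM in white light and 228, 214 and 210.4 TPM under UV-B and rose by 2.71 ± 0.12 (adjusted p = 3.38e-09). Its homologue VTC5 rose by 0.90 ± 0.12, and VTC1 and VTC4 of the same pathway did not pass, with log2 changes of 0.08 ± 0.09 and -0.12 ± 0.14. The cytosolic glutathione reductase gene GR1 rose from 56.4 ± 1.15 to 197 ± 25.6 TPM, and GPX6, a glutathione peroxidase-like gene, from 224 ± 3.47 to 773 ± 89.01 TPM. Of the superoxide dismutases CSD1 held from 659.99 ± 17.1 to 675 ± 39.9 TPM with no call, while FSD1 fell by a log2 change of -0.89 ± 0.14. Of the ascorbate peroxidases APX1 held from 765 ± 22.6 to 755 ± 66.7 TPM with no call.

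Repair of oxidised methionine was looked at after the values were seen. Of 14 methionine sulfoxide reductase genes 6 rose and 3 fell, or 6 and 1 after scaling, with 2 and 1 at least 2-fold. MSRB6 stood at 32.3, 28.9 and 26.5 TPM in white light and 498, 583 and 514 TPM under UV-B and MSRB1, a plastid form, at 53.5, 52.3 and 45.9 TPM in white light and 377, 354 and 349 TPM under UV-B. Both lay far above white light in every library. MSRB9 fell from 77.9 ± 5.24 to 32.8 ± 6.42 TPM, and 5 of the 14 did not pass.

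Photorespiration recycles the product of oxygenation by Rubisco, and 12 of its 16 genes rose and none fell (median 0.49, and 14 after scaling). Apart from CAT2 the glycine decarboxylase P proteins led. GLDP1 (AT4G33010, chromosome 4, 15926652 to 15931422) stood at 86.2, 91.8 and 70.8 TPM in white light and 475, 406 and 395 TPM under UV-B and GLDP2 at 73.1, 79.1 and 70.2 TPM in white light and 230.03, 178 and 193 TPM under UV-B. The H protein GDCH and the T protein GLDT of the same complex rose less, by 0.61 ± 0.15 and 0.50 ± 0.09, and glutamine synthetase GLN2 had a log2 change of -0.02 ± 0.06 with no call.

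Chlorophyll synthesis did not move as one. Of 24 genes 8 rose (33.3%, against 12.9% of all genes) and 3 fell (12.5%, against 29.1%), with a median of 0.04. GUN5, the H subunit of magnesium chelatase, rose from 96.2 ± 13.7 to 271 ± 7.35 TPM, its activator GUN4 from 111 ± 10.99 to 213 ± 19.6 TPM, and HEMA1, which starts the pathway, from 81.8 ± 4.12 to 148 ± 5.04 TPM. The other chelatase subunits CHLI1 and CHLD did not pass, at log2 changes of 0.06 ± 0.10 and -0.07 ± 0.11. PORA and PORB, the light-dependent protochlorophyllide reductases of greening, fell from 6.04 ± 0.57 to 0.59 ± 0.2 TPM and from 601 ± 71.1 to 281 ± 31.4 TPM, while PORC held from 64.5 ± 4.67 to 71.3 ± 6.22 TPM with no call. Antenna, photosystem and Rubisco genes, the most abundant of the tissue, gave 7 higher and 7 lower of 35, which became 9 and 2 after scaling. The minor antenna genes LHCB7 and LHCB4.3 rose from 5.64 ± 1.29 to 48.2 ± 1.49 TPM and from 3.27 ± 0.37 to 10.4 ± 0.29 TPM, and LHCB4.2 fell from 750.2 ± 99.96 to 346 ± 62.4 TPM. None of the 65 tested plastid-encoded genes passed in either direction on either scale, but replicates differed widely. The summed level of all 133 plastid-encoded loci ran from 3460.35 to 5686.15 TPM among the white-light libraries. Under UV-B it ran from 2519.28 to 8478.42 TPM, so a change of these genes could have been missed.

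**Figure D3:**
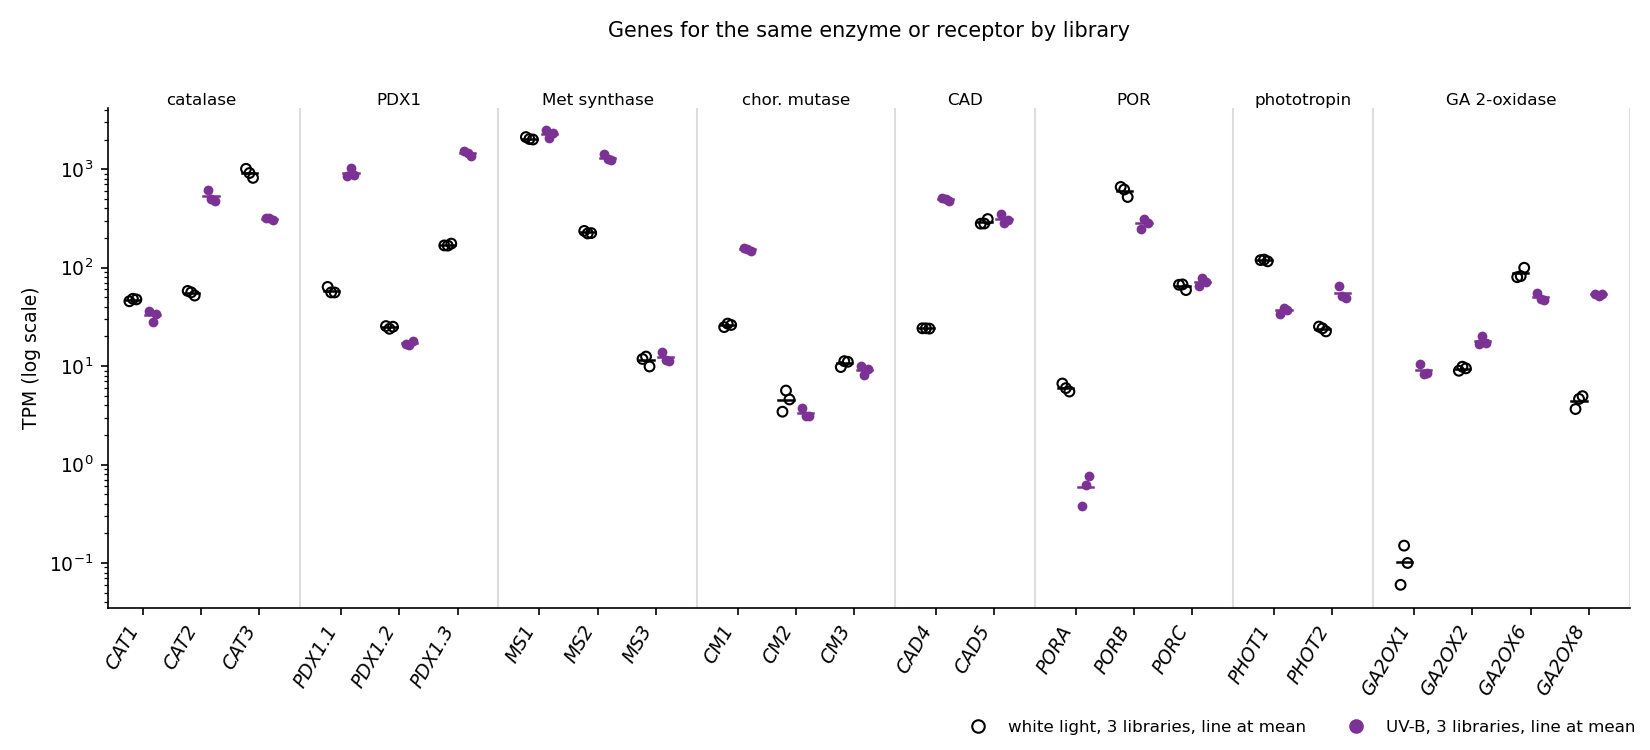
TPM on a log axis of genes for the same enzyme or receptor, with open circles for the 3 white-light libraries, filled circles for the 3 UV-B libraries and lines at the means. CAT2, PDX1.1, PDX1.3, MS2, CM1, CAD4, PHOT2, GA2OX1, GA2OX2 and GA2OX8 rise, CAT1, CAT3, PDX1.2, PORA, PORB, PHOT1 and GA2OX6 fall, and MS1, MS3, CM2, CM3, CAD5 and PORC show no call.

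The supply of phenylalanine and of methyl groups was examined with lists added after the values were seen, so their counts are a description. Phenylalanine from the shikimate pathway feeds flavonoids and sinapate esters. Of 19 genes 15 rose and none fell, 9 at least 2-fold, with a median of 0.98. CM1, the plastid chorismate mutase, stood at 24.9, 27 and 26.1 TPM in white light and 157, 156 and 147 TPM under UV-B and rose by 2.52 ± 0.08 (adjusted p = 1.57e-10). The other 2 chorismate mutases did not pass, CM3 holding from 10.7 ± 0.79 to 9.17 ± 0.95 TPM and CM2 from 4.55 ± 1.1 to 3.33 ± 0.36 TPM. Of the 6 arogenate dehydratases, which complete phenylalanine, 5 rose, led by ADT4 from 33.5 ± 1.55 to 143 ± 10.8 TPM and ADT3 from 48.4 ± 2.2 to 160.5 ± 10.5 TPM, and ADT2 had a log2 change of -0.07 ± 0.07 with no call. DHS1 and DHS3, the entry enzymes, rose by 1.06 ± 0.10 and 0.98 ± 0.08, and DHS2 did not pass at 0.24 ± 0.14. ADT6 shares 1756 bp of exon with an antisense gene.

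Of 13 genes of monolignol and sinapate synthesis 10 rose and none fell, 7 at least 2-fold, with a median of 1.09. CAD4 (AT3G19450, chromosome 3, 6744377 to 6747238), a cinnamyl alcohol dehydrogenase, stood at 24.2, 24.2 and 24.01 TPM in white light and 515, 499.5 and 475 TPM under UV-B. The UV-B mean was 20.6-fold the white-light mean, with a log2 change of 4.31 ± 0.08 (adjusted p = 5.3e-12). CAD5, the other main gene of this step, held 279.6, 280.4 and 311 TPM in white light and 348, 286 and 303 TPM under UV-B. Its groups overlapped and it was not called. UGT84A2, which makes sinapoyl glucose, rose from 28.04 ± 0.23 to 426 ± 19.1 TPM, SCPL10, an acyltransferase-like serine carboxypeptidase, from 2.36 ± 0.55 to 59.5 ± 1.8 TPM, and CCOAOMT1, which methylates caffeoyl-CoA, from 372 ± 6.04 to 1285 ± 11.6 TPM. CCR1 shares 1534 bp of exon with an antisense gene.

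The activated methyl cycle regenerates S-adenosylmethionine, the methyl donor, and 11 of its 16 genes rose and 2 fell (median 0.43). SAHH2, an S-adenosylhomocysteine hydrolase, stood at 688, 658 and 684 TPM in white light and 2488, 2514 and 2462 TPM under UV-B, while the paralogue SAHH1 rose by only 0.38 ± 0.09. MS2, a methionine synthase, stood at 236, 222 and 224 TPM in white light and 1415, 1259 and 1239 TPM under UV-B, whereas MS1, the most abundant, held from 2047 ± 62.1 to 2294 ± 200.4 TPM and MS3 from 11.4 ± 1.34 to 12.2 ± 1.44 TPM, both with no call. SHM4, a cytosolic serine hydroxymethyltransferase, rose from 291 ± 3.63 to 1039 ± 19.7 TPM. Of the S-adenosylmethionine synthetases MAT3 rose by 0.94 ± 0.06 and METK4 fell by a log2 change of -0.42 ± 0.08. THFS, 10-formyltetrahydrofolate synthetase, fell from 99.8 ± 3.41 to 51.7 ± 0.73 TPM.

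Of 77 tested UDP-glycosyltransferases, which attach sugars to small molecules, 27 rose and 29 fell, or 30 and 21 after scaling. At least 2-fold 20 were higher (26.0%, against 4.1% of all genes) and 7 lower (9.09%, against 2.7%). Several act on flavonoids and anthocyanins. UGT79B2, an anthocyanin rhamnosyltransferase, stood at 76.8, 65.4 and 67.8 TPM in white light and 409, 407 and 377 TPM under UV-B. UGT79B3, a close homologue, was at 0.13, 0.04 and 0.04 TPM in white light and 19.1, 26.3 and 27.4 TPM under UV-B. UGT91A1, a flavonol glycosyltransferase, was at 0.17, 0.08 and 0.04 TPM in white light and 28.1, 25.1 and 27.8 TPM under UV-B. The last 2 were thus almost undetected without UV-B. Members known to act on hormones moved both ways. UGT73C5, which glucosylates brassinosteroids, rose from 14.3 ± 1.52 to 78.3 ± 6.62 TPM, and UGT74D1 and UGT74E2, which act on auxins, from 60.1 ± 2.71 to 173 ± 9.63 TPM and from 8.11 ± 1.01 to 21.7 ± 5.08 TPM. UGT74F2, which glucosylates salicylate, fell from 102 ± 9.75 to 47.9 ± 5.09 TPM and UGT76B1, which glucosylates isoleucic and salicylic acid, from 62.3 ± 13.1 to 22.5 ± 3 TPM.

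Of 38 MATE transporters tested 16 rose (42.1%, against 12.9% of all genes) and 7 fell (18.4%, against 29.1%), and 5 were at least 2-fold higher and 1 lower. DTX33, a vacuolar chloride channel, stood at 30.5, 32.5 and 27.01 TPM in white light and 251, 229 and 229 TPM under UV-B. ATDTX35, linked to flavonoid levels, rose from 91.05 ± 6.12 to 347 ± 9.76 TPM. DTX18, an exporter of hydroxycinnamic acid amides, fell from 30.5 ± 8.79 to 11.7 ± 2.62 TPM. Of 39 glutathione S-transferases 10 rose (25.6%, against 12.9% of all genes) and 5 fell (12.8%, against 29.1%), or 12 and 4 after scaling. GSTF12, needed to carry anthocyanins to the vacuole, stood at 3.23, 2.06 and 1.95 TPM in white light and 90.8, 121 and 99.7 TPM under UV-B. GSTU17, the most abundant of those at least 2-fold higher, rose from 483 ± 8.82 to 1161 ± 59.7 TPM, and GSTF2 fell from 321 ± 46.8 to 146 ± 24.6 TPM. Of 123 cytochrome P450 genes 31 rose (25.2%) and 51 fell (41.5%), or 35 and 39 after scaling. At least 2-fold 16 were higher (13.0%, against 4.1% of all genes) and 9 lower (7.32%, against 2.7%). CYP707A2, which inactivates ABA, rose from 3.26 ± 0.49 to 21.03 ± 1.33 TPM and CYP78A7 fell from 10.02 ± 0.52 to 1.31 ± 0.34 TPM. Of 61 MYB factors tested 13 rose and 19 fell, or 16 and 14 after scaling, and 11 rose at least 2-fold (18.0%, against 4.1% of all genes). Beside the flavonol regulators these included MYB75 and MYB90, which switch on anthocyanin genes, from 4.45 ± 0.91 to 35.2 ± 4.13 TPM and from 1.72 ± 0.23 to 26.8 ± 3.85 TPM, the repressors MYB4, MYB7 and MYB32 of phenylpropanoid genes, from 23.4 ± 2.33 to 49.5 ± 3.64 TPM for MYB4, and ATMYB13, which rose from 17.7 ± 2.29 to 126 ± 2.86 TPM.

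**Figure D4:**
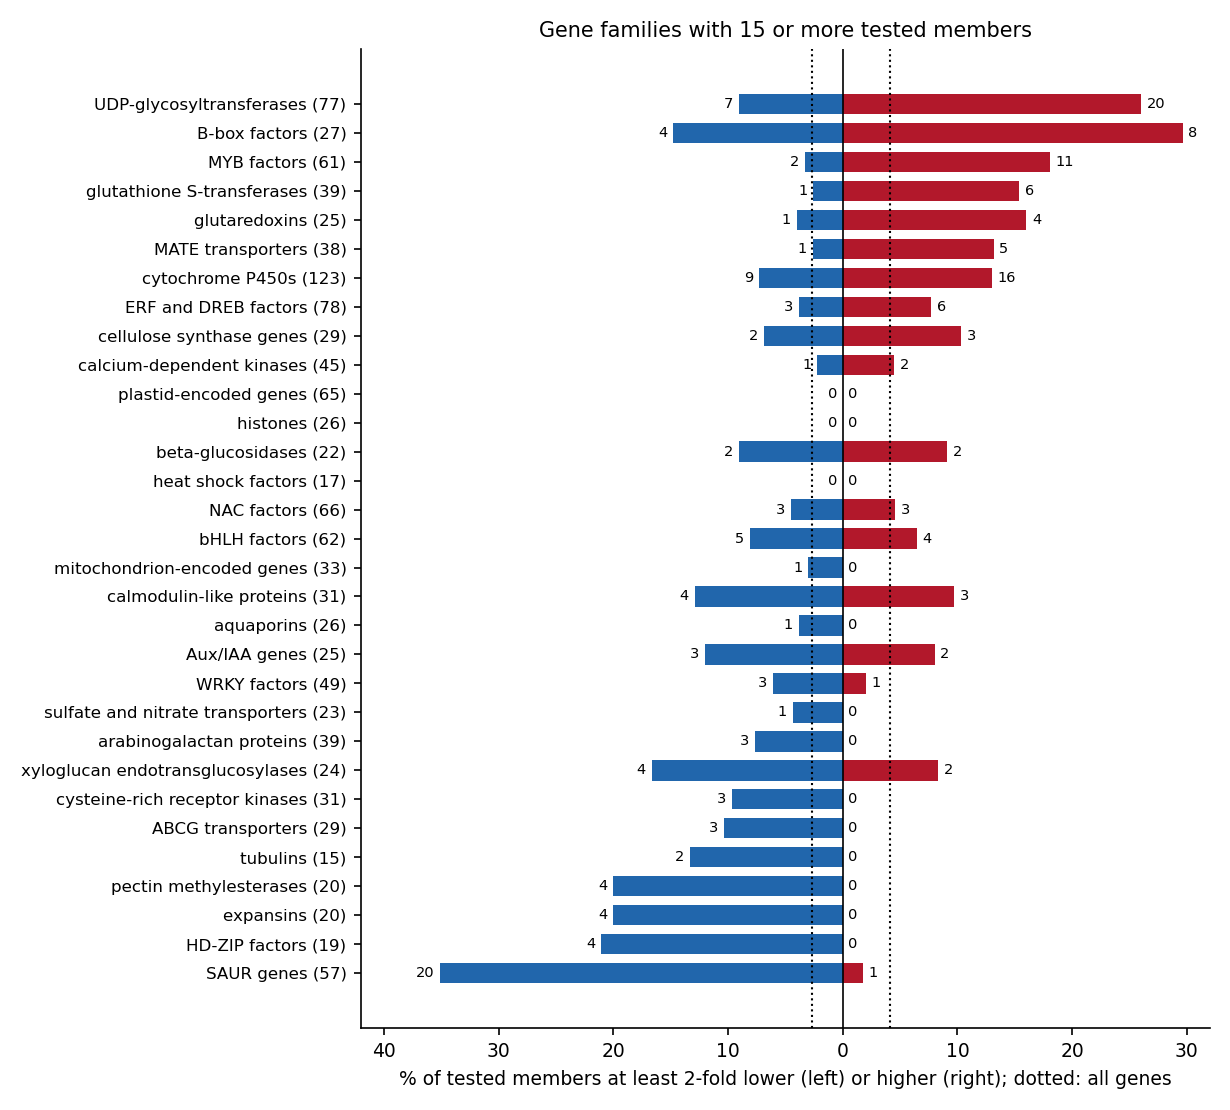
Share of the tested members of gene families (number tested in brackets) called at least 2-fold lower (blue, left) or higher (red, right) under UV-B, in percent, with the number of genes at the bar ends. Dotted lines are the shares of all genes tested, 2.7% lower and 4.1% higher. UDP-glycosyltransferases and B-box factors reach the furthest right, and SAUR genes the furthest left with 20 of 57.

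Clock genes of the morning and of the evening rose together. Of 24 genes 18 rose and 1 fell, 9 at least 2-fold, with a median of 0.87. Of the 24 promoters 9 hold CACGTG (37.5%, against 7.3% of all tested genes). The evening element AAAATATCT is in 6 of the 24 (25.0%, against 2.54%), and neither share was tested. ELF4, an evening complex component and the most abundant of the list under UV-B, stood at 103, 90.6 and 99.4 TPM in white light and 445, 488 and 464 TPM under UV-B and rose by 2.24 ± 0.09 (adjusted p = 2.39e-09). The evening gene TOC1 rose by 0.82 ± 0.10 and GI by 0.90 ± 0.20, whereas the other evening complex genes LUX and ELF3 were not called, with log2 changes of 0.14 ± 0.10 and 0.31 ± 0.16. The morning gene CCA1 stood at 0.63, 1.38 and 1.41 TPM in white light and 5.47, 3.33 and 3.9 TPM under UV-B and PRR9 at 1.32, 2.23 and 1.79 TPM in white light and 15.02, 10.4 and 9.62 TPM under UV-B. These morning genes were low in both groups, and no library of one group overlapped the other. LNK1 and LNK2, coactivators of the afternoon genes, rose by 1.43 ± 0.17 and 0.86 ± 0.14, and PRR5 by 1.34 ± 0.10. BOA, a relative of LUX, was the one to fall, from 5.61 ± 0.2 to 3.13 ± 0.23 TPM. One time point was sampled, so a shift of phase and a change of level cannot be told apart. RVE7 and PRR9 have near-identical copies that may share their reads.

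Of 15 photoreceptor genes and their inhibitors, a list added after the values were seen, 5 rose and 5 fell, or 6 and 5 after scaling. PHOT1, the blue-light receptor of phototropism, stood at 119, 121 and 116 TPM in white light and 34.05, 39.03 and 37.4 TPM under UV-B, a log2 change of -1.66 ± 0.10 (adjusted p = 7.18e-08). PHOT2, its partner for strong light, stood at 25.2, 24.2 and 22.5 TPM in white light and 65, 51.4 and 49.1 TPM under UV-B. Each gene's groups were separate, with opposite directions, although 2760 bp of PHOT2 exon overlap an antisense gene. PHYA, the far-red receptor, fell from 56.4 ± 2.98 to 18.3 ± 1.9 TPM and CRY2, a blue-light receptor, from 64.4 ± 3.61 to 31.1 ± 1.52 TPM. None of the other phytochromes was called, PHYB having a log2 change of 0.35 ± 0.15. The inhibitors of cryptochromes rose most, BIC2 standing at 7.01, 6.94 and 8.54 TPM in white light and 177, 204 and 170.2 TPM under UV-B and BIC1 at 4.28, 4.19 and 4.29 TPM in white light and 67.9, 71.4 and 58.5 TPM under UV-B. Of 27 B-box factors tested 13 rose and 10 fell, or 14 and 8 after scaling, with 8 and 4 at least 2-fold. The microprotein-like MIP1B, which holds a single B-box, stood at 0.14, 0.62 and 0.69 TPM in white light and 33.6, 35.1 and 31.3 TPM under UV-B, and BBX32, an antagonist of BBX21, rose from 1.15 ± 0.1 to 50.2 ± 2.91 TPM. BBX21, an activator with HY5, fell from 42.96 ± 1.32 to 19.3 ± 2.3 TPM, BBX17 from 12.5 ± 1.08 to 1.82 ± 0.35 TPM and COL6 from 167 ± 6.87 to 75.5 ± 1.78 TPM, while LZF1, close in sequence to BBX21, rose from 45.7 ± 2.19 to 153 ± 22.6 TPM.

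The shade and elongation programme was lower under UV-B at the level of its regulators, its hormone genes and its cell-wall genes. Of 19 tested genes of PIF factors and shade response 16 fell and 2 rose, 12 of them at least 2-fold lower against 2.7% of all genes, with a median of -1.17. After scaling 16 fell and 3 rose. PIF4 (AT2G43010, chromosome 2, 17886101 to 17889087), the growth-promoting factor of warmth and shade, stood at 44.2, 45.7 and 41.5 TPM in white light and 14.2, 13.6 and 13.1 TPM under UV-B, a log2 change of -1.61 ± 0.09 (adjusted p = 3.13e-08). PIF5 fell by a log2 change of -1.05 ± 0.11, PIF3 of -1.17 ± 0.09 and PIF1 of -0.82 ± 0.11, whereas PIF7, a shade-signalling member, was higher, at 18.6, 23.1 and 25.99 TPM in white light and 47.6, 30.7 and 30.7 TPM under UV-B. The groups of PIF7 did not overlap, though the highest white-light library came near the lower UV-B libraries. HFR1, an inhibitor of PIF factors, rose from 2.4 ± 0.67 to 7.14 ± 0.25 TPM, while the related inhibitors PAR1 and PAR2 fell from 8.95 ± 1.28 to 2.34 ± 0.41 TPM and from 12.6 ± 0.87 to 6.74 ± 2.44 TPM. The HD-ZIP genes of shade, HAT2, HAT1 and HB-2, fell by log2 changes of -1.68 ± 0.11, -1.13 ± 0.09 and -1.26 ± 0.13. Of 19 tested HD-ZIP factors that carry an HB number, 13 fell and none rose on either scale.

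**Figure D5:**
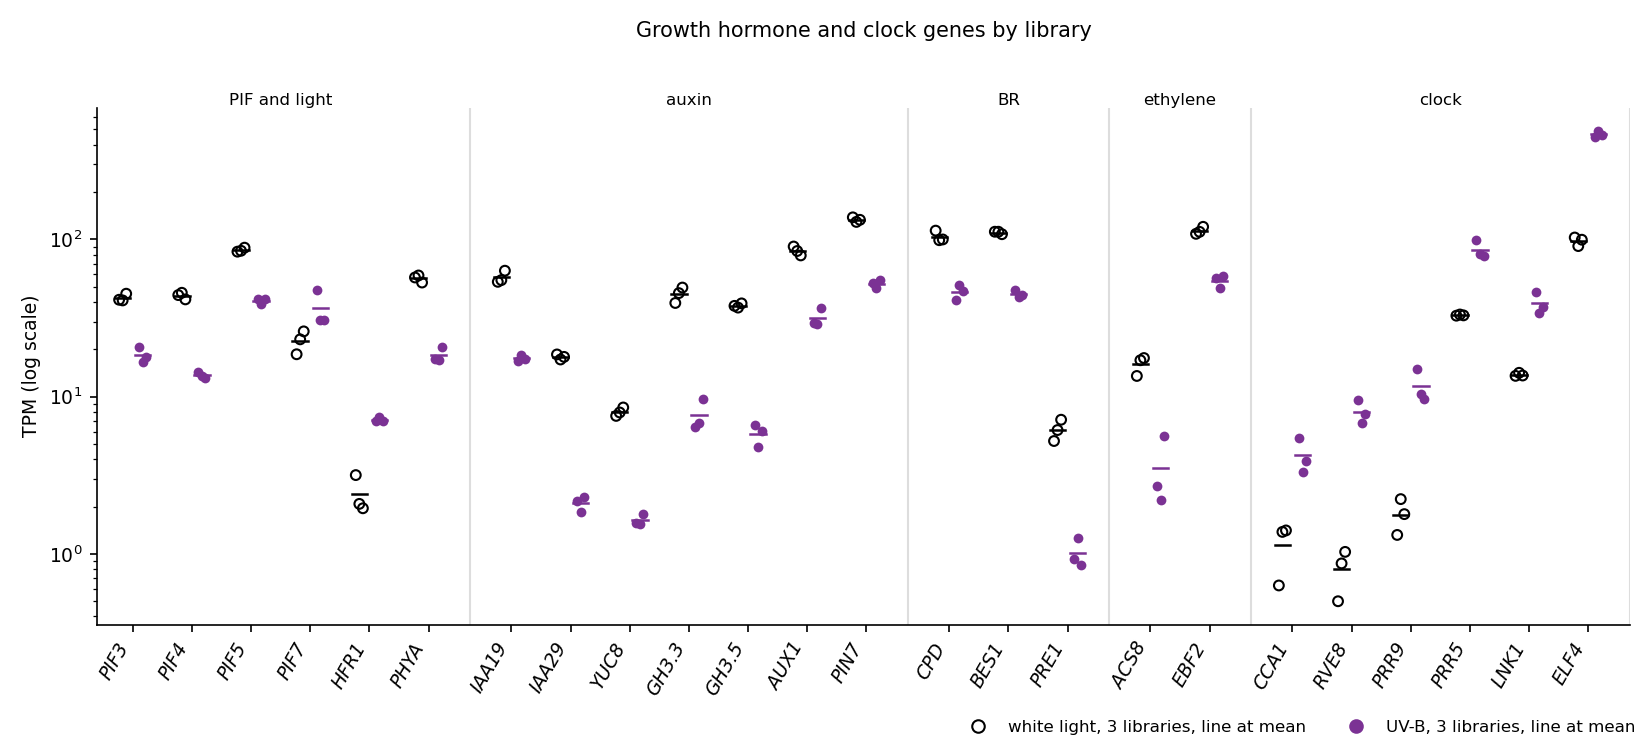
TPM on a log axis of PIF and light, auxin, brassinosteroid (BR), ethylene and clock genes, with open circles for the 3 white-light libraries, filled circles for the 3 UV-B libraries and lines at the means. Growth genes such as PIF4, IAA29, GH3.3 and PRE1 are lower in all 3 UV-B libraries, PIF7 and HFR1 are higher, and the 6 clock genes are higher.

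Auxin genes fell from synthesis to response. Of 14 genes of auxin transport, synthesis and conjugation 11 fell and 2 rose, with a median of -0.78. YUC8, an enzyme of auxin synthesis, stood at 7.54, 7.93 and 8.53 TPM in white light and 1.58, 1.55 and 1.8 TPM under UV-B, and TAA1, one step earlier, fell by a log2 change of -0.92 ± 0.14. The influx carrier AUX1 fell from 84.4 ± 5.51 to 31.6 ± 4.13 TPM and the efflux carriers PIN7, PIN3 and PIN4 by log2 changes of -1.34 ± 0.07, -0.82 ± 0.08 and -0.74 ± 0.11. The conjugating enzymes GH3.3 and GH3.5, which auxin induces, stood at 39.4, 45.5 and 49.4 TPM in white light and 6.41, 6.76 and 9.68 TPM under UV-B and at 37.8, 36.8 and 39.1 TPM in white light and 6.56, 4.77 and 6.05 TPM under UV-B in that order. Both fell in all 3 UV-B libraries, but GH3.6 and GH3.17 of the same family rose by 0.75 ± 0.11 and 0.57 ± 0.14. Of 57 SAUR genes tested, small auxin-induced growth genes, 37 fell and 6 rose, 20 and 1 at least 2-fold, and after scaling 27 fell and 8 rose. The 4 largest of these falls were in unnamed SAUR-like loci, and SAUR64 stood at 13.5, 9.9 and 12.2 TPM in white light and 3.47, 2.61 and 3.44 TPM under UV-B. Of 25 Aux/IAA repressor genes 14 fell and 3 rose, or 11 and 5 after scaling. IAA29 stood at 18.5, 17.2 and 17.9 TPM in white light and 2.17, 1.86 and 2.29 TPM under UV-B and IAA19 fell from 57.3 ± 5.13 to 17.58 ± 0.81 TPM, while IAA17 rose from 22.1 ± 1.37 to 51.7 ± 6.86 TPM.

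Families of cell-wall growth genes had larger shares of lower members than the 29.1% of all genes, or 18.1% after scaling. Of 20 expansins 14 fell (70.0%) and 1 rose, or 9 and 2 after scaling, led by EXPA8 and EXPA11, the latter at 32.5, 30.9 and 28.8 TPM in white light and 3.31, 4.93 and 5.35 TPM under UV-B. Of 24 xyloglucan endotransglucosylase genes 13 fell (54.2%) and 2 rose, or 10 and 2 after scaling. XTH25, XTH33 and XTH15 fell at least 2-fold, whereas XTH24 and XTH22, the latter known as a touch-induced gene, rose from 193 ± 23.8 to 487 ± 53.3 TPM and from 102 ± 12.8 to 229.5 ± 14.4 TPM. Of 20 pectin methylesterases 11 fell (55.0%) and 1 rose, or 10 and 2 after scaling, the lower including PME3 from 237 ± 9.42 to 83.1 ± 4.03 TPM. Of 15 tubulin genes 13 fell on both scales and none rose, or 1 after scaling, with TUBB6 from 187 ± 0.89 to 88.6 ± 2.95 TPM and TUBB1 from 31.9 ± 0.42 to 9.14 ± 1.89 TPM, the latter with 620 bp of exon shared with an antisense gene. Of 29 tested genes of the cellulose synthase family 17 fell (58.6%) and 4 rose, or 13 and 5 after scaling. At least 2-fold, 3 were higher (10.3%, against 4.1% of all genes) and 2 lower (6.9%, against 2.7%), or 4 and 1 after scaling. CSLC4, the xyloglucan glucan synthase, fell from 69.9 ± 4.57 to 22.6 ± 1.67 TPM. Of 16 cell cycle genes 1 fell and none rose, and none was called after scaling, and of 26 histone genes 5 fell, or none after scaling, where 1 rose.

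Brassinosteroid genes were lower without exception among those called, 14 of 17, with a median of -0.82, and 14 were also lower after scaling. CPD, an enzyme of synthesis, stood at 114, 98.7 and 99.8 TPM in white light and 41.4, 51.1 and 47.2 TPM under UV-B and BES1, the transcription factor of the pathway, at 112, 112 and 108 TPM in white light and 47.4, 42.9 and 44.5 TPM under UV-B. The receptor BRI1 fell by a log2 change of -0.82 ± 0.14 and DWF4 by one of -0.74 ± 0.09. PRE1, a small growth-promoting helix-loop-helix protein, fell from 6.16 ± 0.95 to 1.02 ± 0.22 TPM. BAS1, which inactivates brassinosteroids, also fell, from 4.42 ± 0.52 to 1.49 ± 0.57 TPM. BES1 shares 818 bp of exon with an antisense gene.

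Gibberellin genes changed most in the step that inactivates the hormone. GA2OX8 stood at 3.66, 4.64 and 4.95 TPM in white light and 54.3, 51.6 and 54.5 TPM under UV-B and GA2OX1 at 0.06, 0.15 and 0.1 TPM in white light and 10.6, 8.31 and 8.54 TPM under UV-B. Both encode gibberellin 2-oxidases and were separate from white light in every library, with a log2 change of 3.34 ± 0.23 for GA2OX8. GA2OX2 rose by 0.86 ± 0.15, while GA2OX6, the most abundant in white light, fell from 87.2 ± 10.8 to 49.9 ± 4.82 TPM. Of the synthesis genes GA20OX1 fell from 3.45 ± 0.59 to 0.91 ± 0.4 TPM and GA3OX1 held from 10.4 ± 1.79 to 8.17 ± 0.21 TPM with no call. The DELLA repressor genes fell as well, GAI from 50.6 ± 0.64 to 17.9 ± 0.57 TPM, RGA from 56.98 ± 3.12 to 33.3 ± 3.76 TPM and RGL1 from 11.3 ± 0.87 to 3.72 ± 0.27 TPM. Transcript levels of DELLA genes say nothing of the proteins, whose stability gibberellin is known to control.

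Of 15 ethylene genes 12 fell and none rose (10 after scaling), with a median of -0.80. The synthesis genes ACS8, ACS4 and ACS11 fell from 16.1 ± 2.2 to 3.51 ± 1.84 TPM, from 4.95 ± 0.54 to 1.25 ± 0.14 TPM and from 3.76 ± 1.16 to 0.83 ± 0.26 TPM. EBF2 and ERS1, which ethylene itself is known to induce, fell by log2 changes of -1.04 ± 0.09 and -1.01 ± 0.10. Of 12 cytokinin genes 1 was higher (8.33%, against 12.9% of all genes) and 4 lower (33.3%, near the 29.1% of all genes). After scaling 2 were higher and 2 lower (16.7% each, against 19.7% and 18.1%). None changed at least 2-fold, and IPT3 led with a fall from 33.5 ± 1.72 to 20.3 ± 1.25 TPM.

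Sugar transport and sugar-status genes fell. Of 18 tested 10 fell and 1 rose, 7 of them at least 2-fold, or 4 after scaling. SUC2, which loads sucrose into the phloem, stood at 56.05, 50.5 and 46.97 TPM in white light and 15.98, 22.6 and 19.6 TPM under UV-B, and STP1, a hexose importer, at 82.7, 91.8 and 84.6 TPM in white light and 31.3, 31.9 and 33.5 TPM under UV-B. The groups were separate for both. SWEET12, a sucrose exporter, fell from 32.6 ± 4.62 to 15.1 ± 2.3 TPM, while SWEET11 held from 135 ± 4.44 to 142 ± 5.29 TPM with no call. The class II trehalose phosphate synthase genes TPS8, TPS9 and TPS10 fell by log2 changes of -1.12 ± 0.12, -0.78 ± 0.23 and -1.33 ± 0.10, and SUS1, sucrose synthase, rose from 25.6 ± 1.01 to 41.02 ± 6.01 TPM. Starch genes gave 8 higher and 8 lower of 24 (33.3% each, against 12.9% and 29.1% of all genes), or 10 and 6 after scaling. BAM3, the main beta-amylase of the chloroplast, rose from 193 ± 11.3 to 496 ± 74.98 TPM and APL1 of starch synthesis by 0.52 ± 0.07, while PHS1, a plastid phosphorylase, fell by a log2 change of -0.71 ± 0.17.

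Of 20 sulfate assimilation genes 12 fell and none rose, none of them 2-fold, or 9 lower and 3 higher after scaling. APS1, ATP sulfurylase, fell from 381 ± 13.2 to 259 ± 6.81 TPM and GSH1, which starts glutathione synthesis, from 178 ± 8.37 to 129 ± 8.39 TPM. Indole glucosinolate and camalexin genes were lower in 10 of 12 cases (8 after scaling) and higher in none. CYP83B1, which commits indoles to glucosinolates, fell from 468 ± 14.7 to 232 ± 39.9 TPM and MYB122, one of their regulators, from 3.13 ± 0.46 to 0.94 ± 0.36 TPM. Aliphatic glucosinolate genes were lower in 10 of 16 cases, or 7 after scaling with 1 higher, led by the chain-elongation gene MAM3 from 30.2 ± 3.16 to 11.98 ± 0.77 TPM. Of 20 nitrogen genes 12 fell and 2 rose, or 9 and 2 after scaling. GDH2, glutamate dehydrogenase, fell from 115 ± 13.1 to 45.5 ± 7.44 TPM, and the nitrate transporters NRT1.1 and NRT2.1 by the same log2 change of -0.72 ± 0.10 and -0.72 ± 0.14. The ammonium transporter AMT1;1 differed widely among the UV-B libraries, at 1.05, 31.6 and 51.3 TPM against 51.7, 74.2 and 64.9 TPM in white light, and was not called, while AMT1;2 rose from 1.17 ± 0.11 to 5.29 ± 1.13 TPM. Of 11 tested iron genes 4 rose (36.4%, against 12.9% of all genes) and 3 fell (27.3%, near the 29.1%), or 4 and 1 after scaling. The ferritins FER1, FER3 and FER4 were higher by 0.48 to 0.65. The nicotianamine synthases moved apart, NAS3 rising from 20.3 ± 3.19 to 48.2 ± 1.67 TPM and NAS1 falling from 17.96 ± 1.57 to 7.8 ± 1.05 TPM. Of 10 phosphate genes 1 rose and 1 fell (10.0% each).

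The plastid desaturase genes FAD4, FAD5, FAD6, FAD7 and FAD8 rose, and genes of wax synthesis were lower or not called. Of 28 tested genes of fatty acids, cuticle and wax 6 rose and 13 fell, or 9 and 11 after scaling. FAD4 (AT4G27030, chromosome 4, 13571813 to 13573070), which desaturates the palmitate of phosphatidylglycerol in the thylakoid, stood at 3.36, 1.94 and 2.26 TPM in white light and 128, 107 and 104 TPM under UV-B, far apart in every library. FAD5, which acts on the palmitate of galactolipid, rose from 84.8 ± 0.69 to 211 ± 21.5 TPM and FAD8, a plastid omega-3 desaturase, from 23.62 ± 1.6 to 107 ± 11.6 TPM. The related FAD7 and FAD6, a plastid omega-6 desaturase, rose by 0.33 ± 0.09 and 0.40 ± 0.08. ADS1, an acyl-lipid desaturase, stood at 20.8, 17.99 and 18.6 TPM in white light and 1.5, 1.92 and 2.52 TPM under UV-B and KCS12, an elongase, fell from 43 ± 4.72 to 10.6 ± 3.4 TPM. KCS6 and KCS1, elongases of wax, and CER2 fell by log2 changes from -0.71 to -0.66, and CER1 and CER3 of alkane synthesis did not pass, at -0.02 ± 0.16 and 0.01 ± 0.09. FAD8 shares 268 bp of near-identical sequence with PAI1, which may take some of its reads.

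Of 23 tested DNA repair and damage genes 5 rose (21.7%, against 12.9% of all genes) and 2 fell (8.7%, against 29.1%), or 8 and 1 after scaling, with a median of -0.03. DDB2, which recognises UV photoproducts, stood at 4.49, 4.26 and 5.47 TPM in white light and 35.3, 28.6 and 28.3 TPM under UV-B, and SMR7, an inhibitor of the cell cycle induced by DNA damage, at 0.28, 0.87 and 1.01 TPM in white light and 7.94, 6.33 and 6.37 TPM under UV-B. BRCA1 rose by 0.95 ± 0.20 and TSO2, which supplies nucleotides, by 0.63 ± 0.12. The nucleotide excision genes UVH1, UVH3, UVH6 and ERCC1 and the regulator SOG1 were not called, with log2 changes from -0.32 to -0.03, and GMI1 and REV3 fell. Of 18 heat shock genes 5 rose (27.8%) and 2 fell, or 7 and none after scaling. HSP23.6, a mitochondrial small heat shock protein, rose from 0.97 ± 0.04 to 3.85 ± 0.46 TPM, while HSP70, HSP90.1 and HSP101 did not pass, with log2 changes of 0.00 ± 0.11, 0.11 ± 0.18 and -0.24 ± 0.15. Endoplasmic reticulum chaperones were lower, 8 of 12 with none higher on either scale and none by 2-fold, such as SHD from 467 ± 17.8 to 249 ± 19.5 TPM and CNX1 from 626 ± 28.6 to 403 ± 40.4 TPM.

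Of 11 tested mitochondrial stress genes 4 rose, all at least 2-fold (36.4%, against 4.1% of all genes). Another 3 fell (27.3%, near the 29.1% of all genes). After scaling 5 rose and 2 fell. NDA1, an alternative NADH dehydrogenase that light induces, rose from 5.05 ± 0.6 to 26.3 ± 2.04 TPM, UPOX, a marker of oxidative stress, stood at 9.87, 11.7 and 14.02 TPM in white light and 49.9, 41.8 and 42.2 TPM under UV-B, and AOX1A, the alternative oxidase, and its regulator NAC013 rose from 46.1 ± 2.03 to 127 ± 14.2 TPM and from 17.7 ± 2.12 to 45.9 ± 6.66 TPM. Of 19 early stress transcription factors 5 rose (26.3%) and none fell, or 8 and none after scaling, with ZAT12 from 9.07 ± 0.92 to 33.5 ± 2.65 TPM, ZAT10 from 30.6 ± 2.72 to 71.3 ± 15.3 TPM and CBF3 from 2.08 ± 0.39 to 8.22 ± 0.64 TPM. WRKY40, WRKY53, ERF5 and ERF6, known to be induced by wounding or reactive oxygen, did not pass, with log2 changes between -0.11 and 0.16.

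The defence and jasmonate lists had medians near the -0.16 of all genes, at -0.21 and -0.22. Of 16 salicylate and defence genes 3 rose (18.8%, against 12.9% of all genes) and 6 fell (37.5%, against 29.1%). After scaling 4 rose (25.0%, against 19.7%) and 2 fell (12.5%, against 18.1%). PR2 and PR1 fell from 32.4 ± 10.9 to 12.1 ± 4.28 TPM and from 14 ± 4.97 to 7.07 ± 2.86 TPM, while GRX480, a glutaredoxin that interacts with TGA factors, rose from 7.08 ± 1.87 to 25.2 ± 1.73 TPM along with PR5. Of 20 jasmonate genes 3 rose and 9 fell, or 4 and 6 after scaling. The synthesis genes LOX2, AOS and AOC1 fell by log2 changes of -0.84 ± 0.22, -0.81 ± 0.12 and -1.16 ± 0.20, and JAZ9, a repressor, rose from 41.3 ± 2.57 to 113 ± 12.98 TPM. Of 31 ABA and drought genes 12 rose (38.7%, against 12.9% of all genes) and 10 fell (32.3%, near the 29.1% of all genes). After scaling 12 rose (38.7%, against 19.7%) and 2 fell (6.45%, against 18.1%). COR15A and KIN2, abundant cold and drought proteins, rose from 1358 ± 153 to 3208 ± 557 TPM and from 3445 ± 344 to 5786 ± 1076 TPM, GOLS1, galactinol synthase, from 2.77 ± 0.42 to 8.74 ± 1.15 TPM, whereas NCED3, the controlling step of ABA synthesis, and RD29B, an ABA-induced gene, fell from 7.26 ± 1 to 4.2 ± 0.63 TPM and from 2.75 ± 1.82 to 0.8 ± 0.41 TPM.

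Among the ERF and DREB factors and the NAC factors the balance depended on the scale, as it did among all genes tested. Of all genes 12.9% rose and 29.1% fell, or 19.7% and 18.1% after scaling. Of 78 ERF and DREB factors 13 rose and 23 fell, or 21 and 18 after scaling, and of 66 NAC factors 9 rose and 12 fell, or 15 and 10. All 3 of DREB2A, DREB2B and DREB2C, activators of drought and heat genes, rose, DREB2C from 11.2 ± 1.62 to 54.7 ± 7.75 TPM, and DREB2D fell from 5.63 ± 0.39 to 1.77 ± 0.32 TPM. Of 49 WRKY factors 4 rose and 14 fell (28.6%, close to the 29.1% of all genes), or 8 and 11 after scaling, with 1 (2.04%) and 3 (6.12%) at least 2-fold. Of 26 aquaporins 12 fell (46.2%) and 1 rose (3.85%), or 10 (38.5%) and 3 (11.5%) after scaling.

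The genes with the highest changes outside the UVR8 and flavonoid lists included several known here by their locus alone. AT5G62210, annotated as related to an embryo-specific protein, stood at 2.66, 2.1 and 2.32 TPM in white light and 319, 309 and 301 TPM under UV-B. AT3G56290, annotated as a potassium transporter, stood at 7.55, 5.94 and 6.76 TPM in white light and 436, 531 and 469 TPM under UV-B. AT2G23910 stood at 9.07, 6.87 and 8.45 TPM in white light and 308, 382 and 339 TPM under UV-B. These 3 were low in every white-light library and the groups were far apart, with means 131-fold, 70.9-fold and 42.2-fold higher in that order. ABCI21 and ATNAP9, both annotated as soluble ABC proteins, rose from 8.47 ± 1.41 to 302 ± 26.3 TPM and from 12.97 ± 0.95 to 423 ± 49.5 TPM. AT2G15020 was listed at 0 in 1 white-light library and at 0.03 and 0.06 TPM in the others, and stood at 36.95, 38.6 and 40.1 TPM under UV-B. AT4G18422 was listed at 0 in 2 of the 3 white-light libraries, with 0.25 TPM in the other, against 37.2, 52.5 and 42.4 TPM. The noncoding AT1G06002 overlaps the flavonoid gene UGT89C1 on the other strand over 1580 bp, and its values (4.68, 0 and 0 TPM, then 30.1, 105 and 87.9 TPM) cannot be told from those of UGT89C1. MPC2 spread from 77.4 to 351.1 TPM under UV-B. The lowest of all was AT5G62280, at 58.3, 56.5 and 59.2 TPM in white light and 4.61, 7.22 and 8.82 TPM under UV-B. Others were DRMH1, a dormancy-associated gene, at 149, 133 and 104 TPM in white light and 11.3, 24.01 and 19.02 TPM under UV-B, and AT3G15450 at 45.5, 54.1 and 25.98 TPM in white light and 5.77, 8.95 and 8 TPM under UV-B. The white-light libraries of AT3G15450 differed widely among themselves without reaching the UV-B range.

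The levels in uvr8 seedlings under the same UV-B are given for a few of these genes with no test, since that group has no white-light control here. FTSH8 stood at 42.6, 40.04 and 44.3 TPM, PDX1.3 at 177, 172 and 167 TPM, CAD4 at 25.98, 25.5 and 22.7 TPM and CAT2 at 61.1, 63.02 and 60.6 TPM in uvr8, each nearer to Col-0 in white light than to Col-0 under UV-B. UPOX stood at 54.5, 57.6 and 67.03 TPM, SMR7 at 6.29, 4.94 and 5.16 TPM and AOX1A at 95.1, 99.5 and 95.2 TPM, each nearer to Col-0 under UV-B.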

How the data were processed

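Whole seedlings were profiled by RNA sequencing, with libraries from a TruSeq kit sequenced as paired reads, per the labels' protocols. The authors deposited 1 TPM value per gene and library. The unit was read from the values, which are not whole and sum to nearly the same total in each library, and they were used as deposited. TAIR10 is the build per the submitters' processing notes. The sources used here do not give the aligner, the counter or its strand setting. TPM keeps no depth, so no counting interval is given, and a 0 may be a missed estimate. Of 246 genes that were 0 in 1 replicate but over 5 TPM in another, 191 are shorter than 300 bp.

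Genes that reached 1 TPM in 3 or more of the 6 libraries entered a limma 3.58.1 test of log2(TPM + 1) (R 4.3.3, with a mean-variance trend), in 1 fit of the 4 group means over 12 libraries, with Benjamini-Hochberg adjustment over 19146 genes at 0.05. On this scale a change of a gene near 1 TPM is understated. The p-values rest on 3 libraries a group. On simulated data with 200 of the 19146 genes changed, the fit recovered 84% at a change of 1 log2 unit and 100% at 2, with 8 false calls. The changed genes were drawn from those above 5 TPM in white light, and no common shift of the scale was simulated. Recovery of genes below that level is therefore not known. The alternatives were TMM-style scaling (with 30% of log ratios and 5% of levels trimmed), no filter, a filter at 5 TPM, no trend, a pseudocount of 0.1, only the 6 libraries compared, the replicate number as a block, and each library left out in turn.

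The members, the 39 lists (704 loci) and the 32 families were chosen with earlier results of these data known, and 6 further lists (methyl cycle, shikimate, monolignol, photoreceptors, miR163 and methionine sulfoxide reductases) after the values were seen. Families were matched by gene symbol, and 40 loci of another kind that share a symbol were left out. Lists are described by counts and medians, with no set test. Named genes are the 12 highest and 12 lowest changes outside the UVR8 and flavonoid lists with group ranges that do not overlap, at least 5 TPM in the higher group and at least 300 bp, the 3 largest changes in each list and family, and members needed to account for the steps of a pathway. Some genes named by the rule are left out of the text.

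Positions and sequences are from TAIR10.1, to which 32548 of the 32833 loci matched by name. Exons of 290 named or list genes were aligned to all others with BLAST 2.17.0. Of these, 7 match another gene at 95% identity or more over 150 bp or more and 71 share exon sequence with an antisense gene, and their values are uncertain, since the counting is not known. Python 3.11.15, pandas 2.3.3 and matplotlib 3.10.9 were used for the rest. The promoter windows of some genes and a few other items are not reported here.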

Additional observations from a re-analysis of the deposited data

How the results depend on the processing

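For the UV-B against white light comparison in Col-0, the counts of 2465 genes higher and 5571 lower, and of 785 and 517 at least 2-fold, stayed within 1.5 times under every alternative except these. TMM-style scaling gave 3763 higher, 3474 lower and 328 at least 2-fold lower, and a pseudocount of 0.1 gave 807 at least 2-fold lower. Leaving out each library in turn gave 2093 to 2248 higher and 4262 to 5481 lower, and at least 2-fold 771 to 792 higher and 493 to 571 lower. Of 304 named or list genes, 14 lost their call under at least 1 of 13 settings and none reversed. With the filter at 5 TPM only 280 of the 304 were tested. Those left out by that filter are not counted as lost. The replicate numbers do not pair the samples: same-numbered libraries deviated from their group means with correlations of -0.064, -0.039 and 0.14 across genes. With the replicate block 2398 genes were higher and 5320 lower, 785 and 521 at least 2-fold. The depth behind each value is unknown, and genes near or below 1 TPM are the least certain.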

Other observations

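Abundant genes outside every list and family also changed at least 2-fold. They were taken by their mean level after the values were seen, and their changes are a description. Several that were higher belong to the chloroplast. FD1, a leaf ferredoxin, stood at 282, 255 and 242 TPM in white light and 1075, 1129.7 and 1048 TPM under UV-B. PSB28, a photosystem II assembly protein, stood at 71.01, 72.2 and 68.9 TPM in white light and 357, 430.5 and 394 TPM under UV-B, and YCF37, a photosystem I assembly factor, at 193, 184 and 169 TPM in white light and 493, 679 and 571 TPM under UV-B. The 3 UV-B libraries lay above the white-light libraries for each. The plastid-lipid-associated genes PAP1, PAP2 and PAP6, which coat lipid droplets of the plastid, rose from 385 ± 33.7 to 808 ± 21.2 TPM, from 186 ± 2.54 to 397 ± 8.71 TPM and from 142 ± 8.19 to 343 ± 29.8 TPM, CP29B, a plastid RNA-binding protein, from 519 ± 63.4 to 1144 ± 89.99 TPM, and the plastid ATP carrier AATP2 from 159.7 ± 9.62 to 453 ± 14.4 TPM. The most abundant was AT1G13930, from 2827 ± 296 to 7282 ± 1024 TPM.

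Among abundant genes that were lower, PER42, a peroxidase, stood at 845, 796 and 759.98 TPM in white light and 299, 291 and 283 TPM under UV-B and WAT1, a tonoplast auxin transporter of wall thickening, at 280.4, 260.1 and 259 TPM in white light and 114, 103 and 105 TPM under UV-B. GASA14 and GASA4, gibberellin-regulated peptides, fell from 344 ± 11.4 to 144 ± 28.9 TPM and from 267 ± 7.16 to 127 ± 20.6 TPM, and the dormancy and auxin associated AT1G56220 fell from 150.5 ± 16.6 to 42.3 ± 11.6 TPM. SOT15, which sulfates hydroxyjasmonate, fell from 471 ± 26.7 to 167 ± 28.7 TPM, CORI3, a cystine lyase that jasmonate induces, from 196 ± 32.6 to 70.1 ± 23.04 TPM, and FAR1, which makes the fatty alcohols of suberin, from 145 ± 13.8 to 46.7 ± 8.84 TPM.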
